A study of Mus musculus with 12 samples.

Results

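Hematopoietic stem cells (HSCs) that carry an activated Nras allele on top of the loss of 1 Tet2 copy were compared with HSCs that carry the Tet2 loss alone. The genotype called Double was NrasG12D/+;Tet2+/-, and it was set against Tet2+/-, with 3 libraries each, 6 of the 12 libraries of the series. Both groups share the heterozygous Tet2 loss, so the allele that differs is NrasG12D. The other 6 libraries, 3 of NrasG12D/+ and 3 of wild type, give the same allele contrast with both Tet2 copies present and share no library with the comparison. The mice were C57BL/6, 10 to 12 weeks old, and the cells were sorted from their bone marrow through the SLAM gate. This gate requires CD150, Sca1 and cKit on a cell and the absence of CD48 and of lineage markers. The design text gives 3 mice a genotype. How the alleles were made or activated is not given in the sources used here. Values are RPKM, reads scaled to the gene's length and the library's size, and 14154 of the 18546 genes in the table, those at 1 RPKM (log2 RPKM of 0) or more in at least 3 of these 6 libraries, were tested.

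Nras encodes a small GTPase that switches signals on while bound to GTP. The G12D substitution slows GTP hydrolysis, so the protein stays active for longer and feeds the RAF, MEK and ERK kinases, PI3 kinase and the Ral GTPases. Active ERK induces its own brakes, among them the DUSP phosphatases and the Sprouty and SPRED proteins, which makes their RNA a common readout of the pathway. Tet2 oxidises 5-methylcytosine, the first step of active DNA demethylation, and loss of a Tet2 copy together with an activated Ras allele is found in myeloid leukemias. HSCs of this gate mostly rest outside the cell cycle, and RNA of mitosis and DNA synthesis genes marks those that do not.

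Depth was 20935368 to 33941484 reads in genes in the Double libraries and 26376902 to 34533120 in the Tet2+/- libraries, as recovered from the deposited values. Genes at 0 reads numbered 1711 to 2621 in Double libraries and 1265 to 2512 in Tet2+/- libraries. Xist and Y-linked genes showed 1 male library in the Double group (replicate 1) and 2 in the Tet2+/- group (replicates 1 and 3). The gate's markers were present: Kit, the cKit receptor, stood at 85.9, 82.4 and 76.4 RPKM in Double HSCs, against 76.7, 76.9 and 74.4 in Tet2+/- HSCs. Slamf1, which encodes CD150, stood at 6.46, 5.95 and 3.17 RPKM in Double HSCs, against 8.97, 8.73 and 6.36 in Tet2+/- HSCs, and Ly6a, which encodes Sca1, at 4.37, 5.66 and 7.65 RPKM in Double HSCs, against 3.99, 3.51 and 4.92 in Tet2+/- HSCs. Cd48, the gate's negative marker, held 0, 0 and 2 reads in Double HSCs, against 0, 0 and 56 in Tet2+/- HSCs, and fell under the minimum for testing. Of the B lineage list 5 of 10 members were in the table, and their summed level was 4.51 to 10.8 RPKM in Double HSCs and 3.49 to 5.97 in Tet2+/- HSCs.

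The targeted genes did not separate the groups. Nras stood at 6.83, 5.104 and 6.78 RPKM in Double HSCs, against 5.21, 6.35 and 6.696 in Tet2+/- HSCs, and the groups overlapped (log2 0.03 ± 0.20 SE, 95% interval -0.41 to 0.47). The gene Tet2 stood at 4.503, 5.67 and 4.76 RPKM in Double HSCs, against 5.23, 4.09 and 4.82 in Tet2+/- HSCs, also with overlap (log2 0.08 ± 0.20 SE, 95% interval -0.36 to 0.52). The G12D base change and the Tet2 deletion cannot be read from values summed over whole genes, so these levels are no check of the genotypes.

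The comparison asks what the NrasG12D allele changes in HSCs that already lack 1 Tet2 copy. By limma with Benjamini-Hochberg adjustment over the 14154 genes, 1 gene rose in Double HSCs (0.00707% of those tested) and 0 fell. Unadjusted p was under 0.05 for 382 genes that were higher (2.7%) and 387 that were lower (2.73%), and the median log2 difference over all genes was -0.02. The gene that rose was Gem (ENSMUSG00000028214, mm10 chromosome 4, 11704457 to 11714752, plus strand), which encodes a GTP-binding protein of the RGK family, relatives of Ras known for blocking calcium channels. Gem stood at 46.4, 38.3 and 27.97 RPKM in Double HSCs, against 3.23, 3.39 and 5.95 in Tet2+/- HSCs. Every Double library lay far above every Tet2+/- library, with a log2 difference of 3.19 ± 0.33 SE (95% interval 2.47 to 3.92, adjusted p = 0.0257). In the separate libraries Gem stood at 30.8, 55.1 and 27.2 RPKM in NrasG12D/+ HSCs, against 5.76, 7.05 and 4.82 in wild type, again with no overlap (log2 2.63 ± 0.33 SE). The difference between the log2 differences was 0.56 (95% interval -0.46 to 1.59, unadjusted p = 0.249). Among the fits that lost the call, with the log2 difference between 3.02 and 3.27, were those with only the 6 libraries of the comparison (adjusted p = 0.0619), with sex as a covariate (0.0864), with voom on the recovered reads (0.0727), and without Tet2 replicate 1 (0.219), Tet2 replicate 2 (0.114), Double replicate 1 (0.112), Double replicate 2 (0.172) or wild-type replicate 3 (0.0621). The range over all 23 alternatives was 0.014 to 0.965, the highest with female libraries only.

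**Figure D1:**
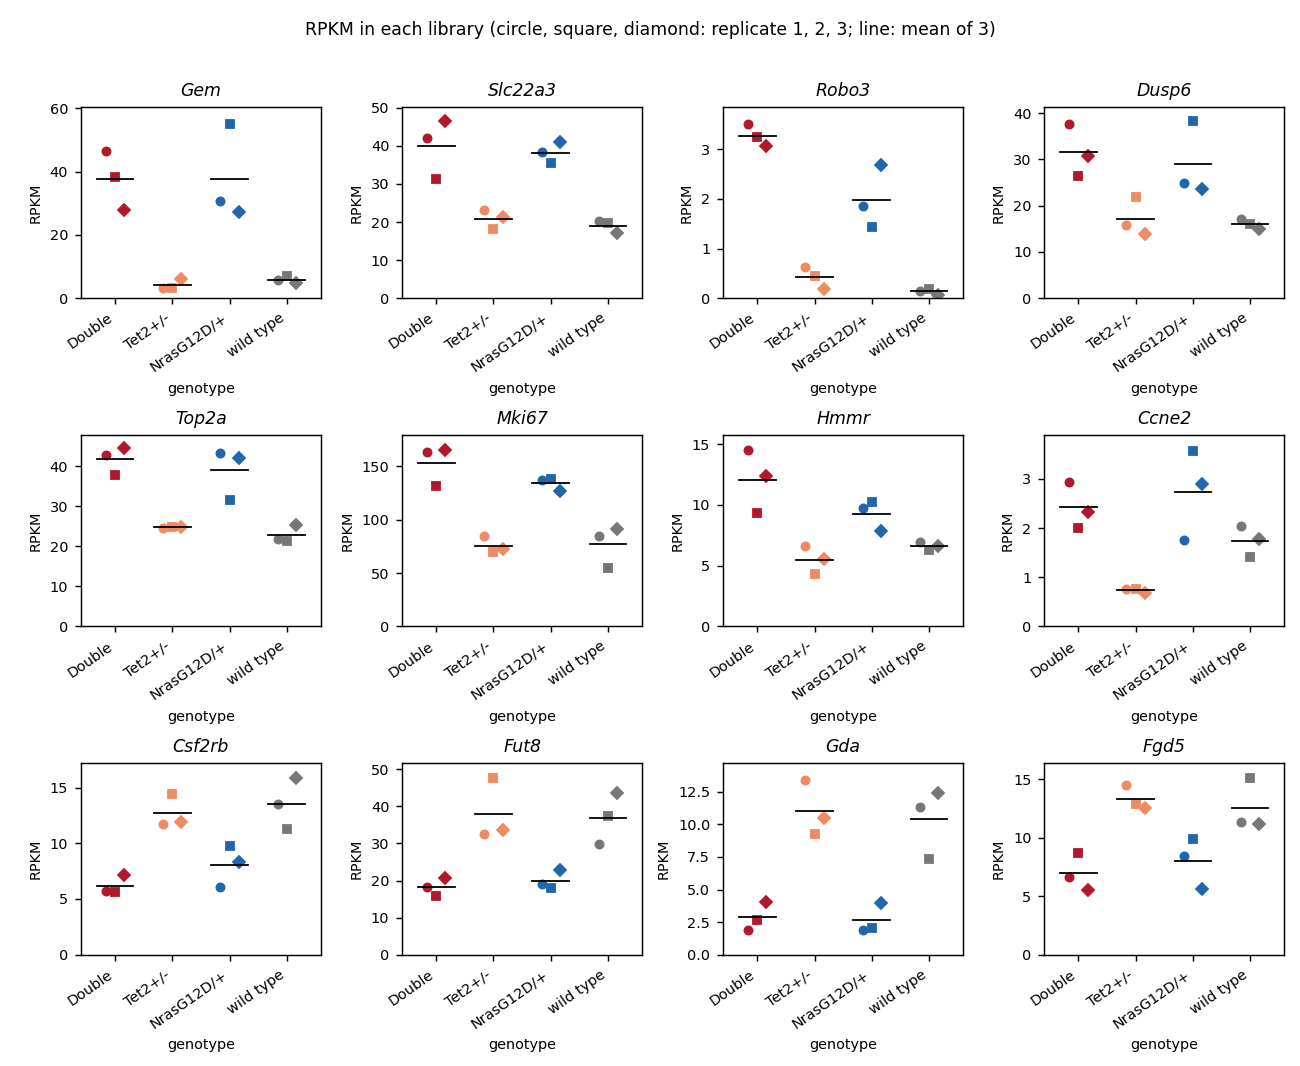
RPKM of 12 genes in each of the 12 libraries, 3 a genotype, on linear axes from 0, with symbols for the replicate number and a line at the mean of 3. In each panel the 3 Double libraries lie clear of the 3 Tet2+/- libraries, above them in the first 8 panels and below them in the last 4, and Gem is the 1 gene of the 12 that passed the test (28.0 to 46.4 RPKM in Double HSCs, against 3.23 to 5.95 in Tet2+/- HSCs). Most of the 12 were named by a rule that asks for no overlap.

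Genes of mitosis had the highest median of all lists with at least 5 tested members. Of the 40 members of the G2/M list, 39 passed the minimum, and 37 of these had a positive log2 difference, with a median of 0.71. In 24 of the 39 (61.5%) every Double library exceeded every Tet2+/- library, against 6.57% of all genes tested, and 0 lay below without overlap (6.52% of all genes). Unadjusted p was under 0.05 for 21 members, while 0 passed after adjustment over all genes (smallest adjusted p = 0.304). Summed over the list, Double HSCs held 564, 489 and 583 RPKM, against 318, 318 and 323 in Tet2+/- HSCs. Between 37 and 38 members were positive under each of the 23 alternatives, and 37 were with female libraries only. Bulk RNA cannot tell more cycling cells from more RNA per cycling cell. Ube2c, a ubiquitin-conjugating enzyme of mitotic exit, was the member below the minimum, with 0, 0 and 139 reads in Double HSCs, against 57, 82 and 30 in Tet2+/- HSCs.

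Promoters of these genes are known to carry the cell cycle homology element TTTGAA, bound by the DREAM repressor complex in resting cells and by MuvB with B-MYB and FOXM1 in dividing cells, and the CCAAT box of NF-Y. The 250 bases before the start are shown for the 3 list members with the smallest p that have an entry in the RefSeq promoter table (GRCm38.p6, each on the minus strand, written 5′ to 3′ in the direction of transcription). Capitals mark TTTGAA or CCAAT on either strand, the reverse forms being TTCAAA and ATTGG, and the last base is the one before the start.
Top2a, chr11:99024190-99024439: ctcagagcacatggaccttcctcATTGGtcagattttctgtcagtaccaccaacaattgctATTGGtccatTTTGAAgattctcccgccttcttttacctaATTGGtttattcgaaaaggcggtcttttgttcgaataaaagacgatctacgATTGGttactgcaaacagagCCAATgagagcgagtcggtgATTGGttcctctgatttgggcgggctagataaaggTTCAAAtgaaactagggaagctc
Mki67, chr7:135716380-135716629: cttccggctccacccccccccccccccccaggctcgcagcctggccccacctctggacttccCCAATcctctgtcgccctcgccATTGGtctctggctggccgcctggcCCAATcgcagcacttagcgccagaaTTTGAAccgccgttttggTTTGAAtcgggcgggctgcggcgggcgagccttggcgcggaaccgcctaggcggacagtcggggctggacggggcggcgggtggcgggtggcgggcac
Hmmr, chr11:40733438-40733687: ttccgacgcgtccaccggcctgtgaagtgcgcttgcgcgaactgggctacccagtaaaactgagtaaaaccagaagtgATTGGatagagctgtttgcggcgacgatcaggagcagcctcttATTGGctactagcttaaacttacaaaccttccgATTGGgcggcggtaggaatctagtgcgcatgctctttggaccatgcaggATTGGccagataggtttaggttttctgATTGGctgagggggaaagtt
Top2a and Mki67 each hold TTTGAA at 2 places, and Hmmr holds 5 CCAAT matches and no TTTGAA. Of the 35 windows found for 33 of the 39 tested members, 14 held TTTGAA (40%), against 1109 of 10512 windows (10.5%) found for 8333 of the tested genes. CCAAT stood in 27 of the 35 (77.1%), against 35.2% of all windows. Among S phase genes, 4 of 31 windows held TTTGAA (12.9%) and 22 held CCAAT (71%). A match is a run of letters and not a bound site, and windows of 1 gene can overlap. The shares were counted over all tested list members found, whatever their values, so they say nothing about Double against Tet2+/- HSCs.

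Top2a, the topoisomerase that untangles chromosomes before they part, stood at 42.9, 37.8 and 44.4 RPKM in Double HSCs, against 24.6, 24.9 and 24.8 in Tet2+/- HSCs. The Double libraries were all above the Tet2+/- libraries, which lay within 1 RPKM of each other (log2 0.75 ± 0.13 SE, limma adjusted p = 0.304). Mki67, the Ki-67 antigen that coats mitotic chromosomes, stood at 164, 131 and 165 RPKM in Double HSCs, against 84.3, 69.3 and 72.5 in Tet2+/- HSCs (log2 1.02 ± 0.18 SE, adjusted p = 0.304). Its groups were well apart. Hmmr, a spindle assembly protein, stood at 14.5, 9.31 and 12.4 RPKM in Double HSCs, against 6.61, 4.32 and 5.56 in Tet2+/- HSCs, without overlap (log2 1.13 ± 0.21 SE, adjusted p = 0.342). Foxm1, the transcription factor that drives late cell cycle genes, stood at 5.697, 5.31 and 5.78 RPKM in Double HSCs, against 3.01, 3.02 and 3.08 in Tet2+/- HSCs, with both groups tight and apart. Nusap1, a microtubule bundling protein, stood at 9.91, 11.9 and 12.7 RPKM in Double HSCs, against 5.76, 6.12 and 4.96 in Tet2+/- HSCs, and Tpx2, the activator of Aurora A, at 5.51, 5.23 and 7.15 RPKM in Double HSCs, against 3.42, 2.73 and 2.76 in Tet2+/- HSCs. Kif11, the kinesin that pushes spindle poles apart, stood at 42.7, 29.8 and 27.3 RPKM in Double HSCs, against 19.4, 22.4 and 20.8 in Tet2+/- HSCs, with Double replicate 1 the highest. Smc4, a condensin subunit, showed the smallest separation of the 8 members with the lowest p, at 17.99, 18.9 and 20.3 RPKM in Double HSCs, against 14.3, 15.8 and 13.6 in Tet2+/- HSCs (log2 0.39 ± 0.12 SE). The largest log2 difference of the list was 1.28, for the B-type cyclin Ccnb2 at 14.3, 22.1 and 18.5 RPKM in Double HSCs, against 4.61, 13.1 and 6.79 in Tet2+/- HSCs, and the 2 members below 0 were Ect2 (-0.06) and Plk1 (-0.00).

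The same list was also high where the Nras allele stood alone. In NrasG12D/+ against wild type, 37 of the 39 members were positive, the median was 0.51, and 14 (35.9%) lay above without overlap, against 5.38% of all genes. Summed RPKM was 557, 500 and 529 in NrasG12D/+ HSCs, against 396, 271 and 388 in wild type. The sign matched between the comparisons for 35 members, and unadjusted p for the interaction was under 0.05 for 1. Casc5, a kinetochore scaffold outside the list, followed with 7.08, 6.103 and 7.82 RPKM in Double HSCs, against 2.79, 3.31 and 3.99 in Tet2+/- HSCs, and with 7.11, 6.37 and 6.37 RPKM in NrasG12D/+ HSCs, against 2.56, 3.27 and 4.37 in wild type.

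**Figure D2:**
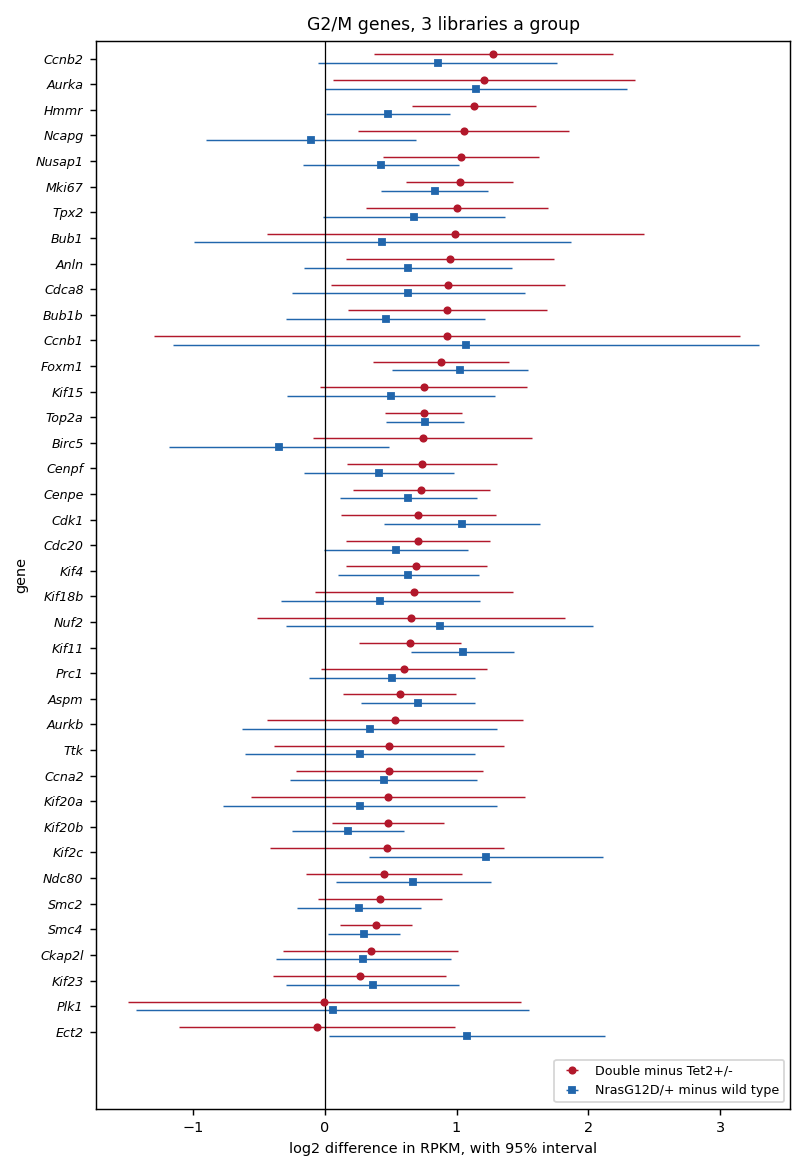
Log2 difference of RPKM with its 95% interval for the 39 tested G2/M genes, Double minus Tet2+/- as red circles and NrasG12D/+ minus wild type as blue squares, 3 libraries a group. In the comparison with Tet2+/-, 37 of 39 red points lie right of 0, and 0 members passed after adjustment over all genes.

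DNA synthesis genes were higher by less. In the S phase list 34 of 35 members were tested, 31 were positive, the median was 0.31 and 12 (35.3%) lay above without overlap, with 0 below, against 6.57% above and 6.52% below over all genes. Ccne2, the E-type cyclin that starts S phase with Cdk2, stood at 2.94, 2.01 and 2.33 RPKM in Double HSCs, against 0.761, 0.772 and 0.681 in Tet2+/- HSCs (log2 1.70 ± 0.37 SE, adjusted p = 0.507). Wild-type HSCs held 2.05, 1.41 and 1.78 RPKM of Ccne2, above all 3 Tet2+/- libraries, and 17.4% of its exon bases are shared with Ints8 on the opposite strand. Pold1, the catalytic subunit of DNA polymerase delta, stood at 5.603, 6.04 and 6.24 RPKM in Double HSCs, against 3.64, 3.28 and 3.64 in Tet2+/- HSCs, and Pola1, of polymerase alpha, at 12.9, 20.1 and 16.3 RPKM in Double HSCs, against 11.5, 11.2 and 12.8 in Tet2+/- HSCs. Mcm7, a subunit of the replicative helicase, stood at 25.5, 25.1 and 28.9 RPKM in Double HSCs, against 23.7, 17.01 and 16.3 in Tet2+/- HSCs, and Rrm2, a subunit of ribonucleotide reductase, at 7.76, 4.94 and 6.87 RPKM in Double HSCs, against 1.73, 3.69 and 3.42 in Tet2+/- HSCs. These 5 members did not overlap between the groups and did not pass.

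Replication-dependent histones, which are made during DNA synthesis, had 40 of 44 members positive with a median of 0.48 and 12 (27.3%) above without overlap, against 6.57% of all genes. Hist1h1b, a linker histone, stood at 61.9, 50.2 and 69.3 RPKM in Double HSCs, against 41.1, 31.6 and 34.1 in Tet2+/- HSCs, and Hist1h1c at 179, 212 and 164 RPKM in Double HSCs, against 114, 112 and 133 in Tet2+/- HSCs. The core histones Hist1h3c and Hist1h2ab stood at 23.1, 22.7 and 28.7 RPKM in Double HSCs, against 11.4, 12.7 and 20.2 in Tet2+/- HSCs and at 29.8, 38.97 and 43.6 RPKM in Double HSCs, against 22.2, 22.3 and 26.1 in Tet2+/- HSCs. Histone genes are near-identical copies, so how reads were shared among them is uncertain, and the sum over the list is firmer: 1554, 1935 and 1587 RPKM in Double HSCs, against 1139, 1222 and 1415 in Tet2+/- HSCs. Between 32 and 43 of the 44 were positive under the alternatives.

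Of the cyclins and kinases of G1, Cdk6, partner of the D-type cyclins, stood at 39.3, 27.8 and 43.3 RPKM in Double HSCs, against 26.9, 24.7 and 26.3 in Tet2+/- HSCs, apart by a small gap. Ccnd1, a D-type cyclin and ERK target, stood at 20.2, 17.4 and 19.9 RPKM in Double HSCs, against 19.1, 7.44 and 13.5 in Tet2+/- HSCs and overlapped through Tet2 replicate 1 (log2 0.63 ± 0.30 SE). Cdk2 overlapped too, at 26.9, 23.6 and 25.6 RPKM in Double HSCs, against 13.3, 24.5 and 20.4 in Tet2+/- HSCs. Cell cycle brakes had no common direction, with 8 of 18 tested members positive and a median of -0.04. Cdkn2d, an inhibitor of Cdk4 and Cdk6, was nevertheless higher without overlap, at 16.3, 16.2 and 19.6 RPKM in Double HSCs, against 7.49, 14.2 and 10.9 in Tet2+/- HSCs, and so was the related Cdkn2c, at 2.57, 3.91 and 3.15 RPKM in Double HSCs, against 2.32, 0.726 and 1.66 in Tet2+/- HSCs. These were the 2 members above without overlap (11.1%), against 6.57% of all genes, and 1 (5.56%) lay below, against 6.52%. No member of the list passed.

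ERK output was read from 20 genes, of which 13 reached the minimum. Of these 8 were positive and 5 negative, the median was 0.24, and 3 (23.1%) lay above without overlap, against 6.57% of all genes. Dusp6, the phosphatase that switches off cytoplasmic ERK, stood at 37.7, 26.5 and 30.7 RPKM in Double HSCs, against 15.7, 21.9 and 13.8 in Tet2+/- HSCs (log2 0.90 ± 0.22 SE, limma adjusted p = 0.597). All Double libraries were above the highest Tet2+/- library. Spred1, which recruits neurofibromin to turn Ras off, stood at 27.4, 30.9 and 28.2 RPKM in Double HSCs, against 23.5, 21.9 and 22.4 in Tet2+/- HSCs, a smaller difference with a tight spread (log2 0.35 ± 0.09 SE, adjusted p = 0.597). Etv5, an ETS transcription factor induced by ERK, stood at 8.38, 7.35 and 6.39 RPKM in Double HSCs, against 5.02, 2.45 and 5.17 in Tet2+/- HSCs. The remaining feedback genes did not separate. Spry2, a Sprouty inhibitor of the pathway, stood at 7.44, 1.77 and 9.47 RPKM in Double HSCs, against 13.2, 7.58 and 7.84 in Tet2+/- HSCs, and Spry1 at 1.39, 1.98 and 1.35 RPKM in Double HSCs, against 2.08, 3.16 and 1.66 in Tet2+/- HSCs, both with negative log2 differences (-0.88 and -0.51) and overlap. Spred2 stood at 10.2, 8.27 and 8.97 RPKM in Double HSCs, against 8.97, 6.63 and 7.69 in Tet2+/- HSCs, and Dusp5, a phosphatase of nuclear ERK, at 5.18, 5.93 and 4.03 RPKM in Double HSCs, against 3.22, 13.5 and 8.24 in Tet2+/- HSCs. The summed level of the list was 157, 154 and 156 RPKM in Double HSCs, against 122, 151 and 129 in Tet2+/- HSCs. In NrasG12D/+ against wild type, 8 of the 13 were positive with a median of 0.33, and 5 (38.5%) lay above without overlap, against 5.38% of all genes. Dusp6 there stood at 24.97, 38.2 and 23.6 RPKM in NrasG12D/+ HSCs, against 17.1, 16.1 and 15.01 in wild type.

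Components that carry the Ras signal showed no common direction beyond a small positive median. In the list of Ras and its regulators 29 members were tested, 20 were positive, the median was 0.08, and 1 (3.45%) lay above and 2 (6.9%) below without overlap, against 6.57% and 6.52% of all genes, so neither share stood out from the background. Hras, a sister GTPase of Nras, stood at 2.32, 1.18 and 1.35 RPKM in Double HSCs, against 0.456, 1.47 and 0.801 in Tet2+/- HSCs, with overlap. Map2k1, which encodes MEK1, the kinase that activates ERK, was lower without overlap, at 3.95, 4.85 and 7.96 RPKM in Double HSCs, against 8.25, 9.24 and 8.81 in Tet2+/- HSCs (log2 -0.71 ± 0.27 SE, adjusted p = 0.862). Ptpn11, the phosphatase SHP2 that promotes Ras activation, was higher at 8.05, 7.81 and 7.77 RPKM in Double HSCs, against 6.34, 7.28 and 5.78 in Tet2+/- HSCs. Of the PI3 kinase and Ral branch, 20 members were tested, Gem among them, with 10 positive and 10 negative. Pik3cd, the leukocyte catalytic subunit, stood at 4.12, 4.88 and 5.57 RPKM in Double HSCs, against 7.702, 11.5 and 7.71 in Tet2+/- HSCs, and its partner Pik3r1 at 29.1, 34.9 and 33.2 RPKM in Double HSCs, against 47.1, 36.04 and 35.8 in Tet2+/- HSCs, both lower without overlap. Inpp5d, the SHIP1 phosphatase that degrades the lipid product of PI3 kinase, was higher at 11.9, 13.7 and 11.7 RPKM in Double HSCs, against 9.04, 10.8 and 10.04 in Tet2+/- HSCs. None of these genes passed.

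Cytokine receptors were mixed, with 15 of 27 tested members positive and a median of 0.03. Csf2rb, the beta chain shared by the receptors for IL-3, IL-5 and GM-CSF, stood at 5.71, 5.64 and 7.19 RPKM in Double HSCs, against 11.8, 14.4 and 11.9 in Tet2+/- HSCs (log2 -1.04 ± 0.21 SE, adjusted p = 0.391). The highest Double library was well below the lowest Tet2+/- library. In the separate libraries it stood at 6.04, 9.77 and 8.36 RPKM in NrasG12D/+ HSCs, against 13.5, 11.3 and 15.9 in wild type. Of the STAT5, SOCS and PIM list, whose members respond to cytokine signals, 14 of 18 were tested, 12 were negative, the median was -0.27, and 5 (35.7%) lay below without overlap, against 6.52% of all genes. Pim2 and Pim1, survival kinases, stood at 3.29, 1.44 and 3.23 RPKM in Double HSCs, against 4.65, 5.45 and 6.32 in Tet2+/- HSCs and at 40.4, 58.4 and 61.3 RPKM in Double HSCs, against 67.6, 152 and 65.4 in Tet2+/- HSCs. Sh2b3, the adaptor LNK that restrains cytokine signaling, stood at 3.47, 2.64 and 3.47 RPKM in Double HSCs, against 4.37, 4.18 and 5.05 in Tet2+/- HSCs, and Cish, a STAT5-induced inhibitor, at 2.17, 3.27 and 4.997 RPKM in Double HSCs, against 7.09, 4.59 and 5.67 in Tet2+/- HSCs, where 1 Double library overlapped. In NrasG12D/+ against wild type the list had 8 of 14 positive and a median of 0.04. Its interaction had unadjusted p under 0.05 for 2 members and passed for 0.

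HSC identity genes stood slightly lower. Of 35 tested members 25 were negative, the median was -0.17, and 8 (22.9%) lay below without overlap, against 6.52% of all genes, while 2 (5.71%) lay above, against 6.57%. Ifitm1, an interferon-induced membrane protein found in HSCs, stood at 14.98, 12.2 and 15.5 RPKM in Double HSCs, against 34.5, 30.3 and 38.1 in Tet2+/- HSCs (log2 -1.27 ± 0.31 SE, adjusted p = 0.597). Fgd5, an exchange factor for Cdc42 used as an HSC marker, stood at 6.64, 8.697 and 5.52 RPKM in Double HSCs, against 14.5, 12.9 and 12.5 in Tet2+/- HSCs (log2 -0.96 ± 0.24 SE, adjusted p = 0.597). Hlf, a transcription factor that keeps HSCs quiescent, stood at 44.99, 52.4 and 44.8 RPKM in Double HSCs, against 65.8, 68.1 and 66.7 in Tet2+/- HSCs, with the Tet2+/- libraries within 3 RPKM of each other. Mycn, a MYC family factor, stood at 24.8, 36.1 and 26.7 RPKM in Double HSCs, against 47.9, 40.01 and 44.9 in Tet2+/- HSCs. These 4 did not overlap between the groups and did not pass. In NrasG12D/+ against wild type 22 of the 35 were negative and the median was -0.11. There 2 lay below without overlap and 4 above, against 4.44% and 5.38% of all genes. Prdm16, a regulator of HSC maintenance from the Hox and self-renewal list, stood at 1.82, 1.97 and 1.67 RPKM in Double HSCs, against 2.699, 2.37 and 3.05 in Tet2+/- HSCs, lower without overlap, while that list had 6 of 19 positive and a median of -0.13.

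**Figure D3:**
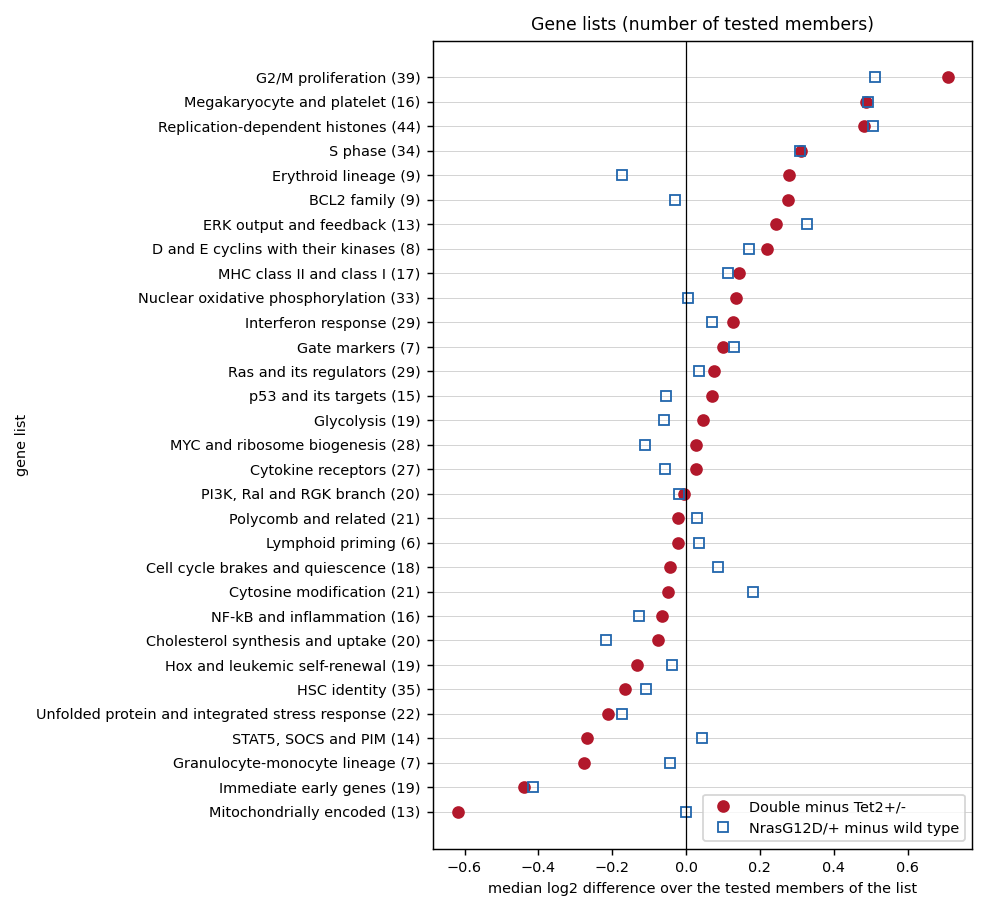
Median log2 difference over the tested members of each gene list with at least 5 of them (the number in parentheses), Double minus Tet2+/- as filled circles and NrasG12D/+ minus wild type as open squares. The G2/M list lies highest, at 0.71 and 0.51, and the mitochondrially encoded genes lowest, at -0.62 and -0.00. No list was tested as a set.

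Markers of other blood cells were read for what the sort could also hold. Megakaryocyte and platelet genes, some of which HSCs also express, had 12 of 16 tested members positive and a median of 0.49, with summed levels of 263 to 301 RPKM in Double HSCs and 249 to 266 in Tet2+/- HSCs. Pf4, platelet factor 4, stood at 7.45, 10.6 and 7.38 RPKM in Double HSCs, with 214, 489 and 292 reads, and Tet2+/- libraries held 0, 93 and 101 reads. Selp, P-selectin, stood at 12.3, 7.18 and 16.2 RPKM in Double HSCs, against 2.11, 8.299 and 4.84 in Tet2+/- HSCs, overlapping. Pf4, a defining gene of this list, did not overlap between the groups and did not pass. Of the list 2 (12.5%) lay above and 1 (6.25%) below without overlap, against 6.57% and 6.52% of all genes. The platelet glycoprotein genes Gp1ba and Gp1bb fell under the minimum. In the erythroid list Aqp1, a water channel, was higher at 17.6, 12.5 and 16.9 RPKM in Double HSCs, against 7.7998, 7.68 and 3.74 in Tet2+/- HSCs, and 6 of 9 tested members were positive. Notch1, the receptor for T lineage choice, of the lymphoid list stood at 3.44, 7.05 and 5.47 RPKM in Double HSCs, against 9.51, 7.67 and 7.69 in Tet2+/- HSCs, lower without overlap. Of 16 measured granulocyte-monocyte genes, 7 reached the minimum and 2 of these were positive, while Mpo and Elane, which define neutrophil precursors, fell under the minimum.

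Prg2, which encodes the major basic protein of eosinophils, separated the libraries by reads. Double libraries held 48, 95 and 1381 reads, against 0 in each of the 3 Tet2+/- libraries, so that the mean was at least 165.4-fold higher, with a floor of 3 reads per library. Double replicate 3 alone held most of these reads, and NrasG12D/+ libraries held 0, 0 and 28 with 0 in wild type. Cpa3, a mast cell protease and the other member of that list in the table, was under the minimum, and the list summed to 2.72, 3.36 and 59.4 RPKM in Double HSCs, against 0.907, 0.0151 (a library at 0 reads) and 1.10 in Tet2+/- HSCs. Prg2 did not pass (adjusted p = 0.747). Whether the lineage markers play a part in the cell cycle and ERK values was not tested. The G2/M median without Double replicate 3 was 0.61, and Double replicates 1 and 2, which also held Prg2 reads, stayed in that fit.

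Mitochondrially encoded genes were all lower. The 13 members had a median of -0.62, 13 of 13 were negative, 5 (38.5%) lay below without overlap, against 6.52% of all genes, and 0 passed. Mt-Nd5 and mt-Nd4, subunits of respiratory complex I, stood at 132, 127 and 188 RPKM in Double HSCs, against 291, 203 and 267 in Tet2+/- HSCs and at 20.9, 25.6 and 34.5 RPKM in Double HSCs, against 45.5, 58.4 and 73.9 in Tet2+/- HSCs. Mt-Nd1, of the same complex, stood at 78.5, 75.1 and 85.5 RPKM in Double HSCs, against 127, 176 and 152 in Tet2+/- HSCs, and mt-Cytb, of complex III, at 117, 168 and 221 RPKM in Double HSCs, against 226, 260.1 and 269 in Tet2+/- HSCs. Per the labels' protocols mitochondrial RNA was removed with a depletion kit, so these levels measure what was left, and the efficiency of that step cannot be told apart from the genotype. NrasG12D/+ and wild-type libraries had no common direction, with 6 of 13 positive and a median of -0.00. Nuclear genes of oxidative phosphorylation had 20 of 33 positive and a median of 0.14.

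Immediate early genes, which ERK and many stresses induce within minutes, were highest in replicate 2 of every genotype. Their summed level was 161, 778 and 229 RPKM in Double HSCs, against 157, 997 and 404 in Tet2+/- HSCs, and 126, 884 and 312 in NrasG12D/+ HSCs, against 236, 916 and 373 in wild type. Within replicate numbers 2 and 3 the Double library was lower, and within number 1 it was level with Tet2+/-. The median log2 difference was -0.44, with 15 of 19 tested members negative, and it became 0.14 without Tet2 replicate 2. Fosb, an AP-1 subunit, ranged from 0.406 to 50.4 RPKM across Double libraries, against 3.89 to 90.2 across Tet2+/- libraries. The transcription factor Myc, at 3.99, 5.403 and 5.61 RPKM in Double HSCs, against 7.74, 6.93 and 5.62 in Tet2+/- HSCs, was the 1 member below without overlap (5.26%, against 6.52% of all genes). Its nearest libraries, replicate 3 of each group, were almost level.

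**Figure D4:**
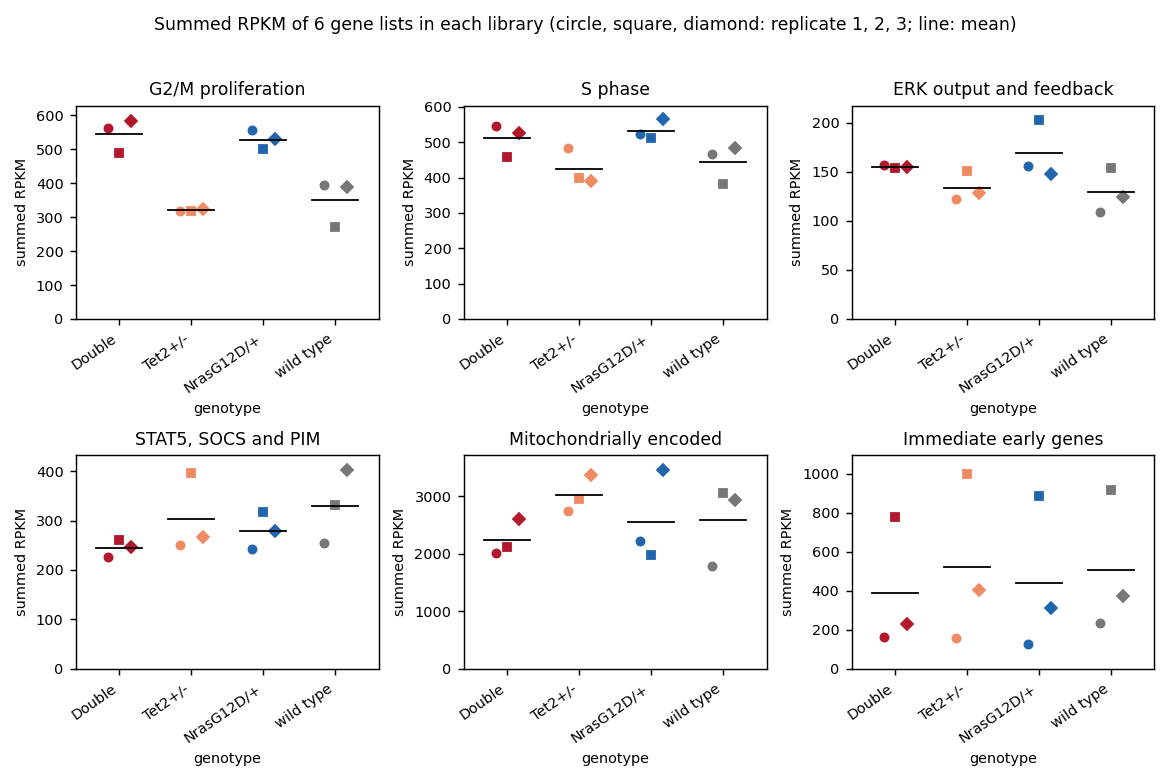
Summed RPKM of 6 gene lists in each of the 12 libraries, 3 a genotype, on linear axes from 0, with symbols for the replicate number and a line at the mean. The G2/M sums of Double HSCs (489 to 583) lie clear above those of Tet2+/- HSCs (318 to 323), the mitochondrially encoded sums lie below (2011 to 2607, against 2737 to 3366), and the immediate early sums are highest in replicate 2 of every genotype.

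Beyond these lists, Slc22a3, an organic cation transporter, had the smallest unadjusted p among the named genes that were higher and did not pass. It stood at 41.9, 31.3 and 46.4 RPKM in Double HSCs, against 23.3, 18.1 and 21.3 in Tet2+/- HSCs (log2 0.92 ± 0.16 SE, adjusted p = 0.304), and the allele alone gave 38.3, 35.5 and 40.9 RPKM in NrasG12D/+ HSCs, against 20.2, 19.8 and 17.1 in wild type. Robo3, a receptor of the Robo family, stood at 3.499, 3.25 and 3.06 RPKM in Double HSCs, against 0.638, 0.446 and 0.1804 in Tet2+/- HSCs (log2 3.13 ± 0.67 SE, adjusted p = 0.498). Cks2, a small subunit of cyclin-dependent kinases, stood at 8.62, 17.8 and 13.5 RPKM in Double HSCs, against 1.799, 2.13 and 2.68 in Tet2+/- HSCs (log2 2.55 ± 0.51 SE), while it overlapped between NrasG12D/+ and wild type, at 2.82, 8.65 and 11.3 RPKM in NrasG12D/+ HSCs, against 3.77, 8.18 and 4.74 in wild type. Fgfr1op2, a cytoskeletal protein, stood at 17.7, 17.1 and 16.02 RPKM in Double HSCs, against 12.1, 12.2 and 12.5 in Tet2+/- HSCs, a small but tight separation (log2 0.47 ± 0.10 SE, adjusted p = 0.46). In the separate libraries it was lower without overlap, at 12.6, 13.03 and 14.5 RPKM in NrasG12D/+ HSCs, against 14.95, 14.7 and 14.7 in wild type, and the unadjusted p of the interaction was 0.00128 (adjusted p = 0.998).

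None of the genes that were lower passed. Those given here were named by the smallest p among genes whose groups did not overlap, so their separation follows from that rule. Fut8, the enzyme of core fucosylation, stood at 18.4, 15.7 and 20.6 RPKM in Double HSCs, against 32.6, 47.7 and 33.7 in Tet2+/- HSCs (log2 -1.05 ± 0.19 SE, adjusted p = 0.33). Gda, guanine deaminase, stood at 1.91, 2.69 and 4.07 RPKM in Double HSCs, against 13.4, 9.28 and 10.5 in Tet2+/- HSCs (log2 -1.99 ± 0.37 SE, adjusted p = 0.33). The direction was the same where the Nras allele stood alone, with Fut8 at 19.2, 17.9 and 22.8 RPKM in NrasG12D/+ HSCs, against 29.8, 37.4 and 43.7 in wild type, and Gda at 1.89, 2.05 and 3.94 RPKM in NrasG12D/+ HSCs, against 11.3, 7.38 and 12.4 in wild type. Gaa, the lysosomal enzyme that breaks down glycogen, stood at 6.92, 5.49 and 6.89 RPKM in Double HSCs, against 14.2, 9.796 and 10.3 in Tet2+/- HSCs, and Rtca, the RNA 3'-terminal phosphate cyclase, at 1.75, 2.13 and 1.85 RPKM in Double HSCs, against 3.98, 4.24 and 3.99 in Tet2+/- HSCs. Fam69b stood at 2.52, 2.12 and 2.99 RPKM in Double HSCs, against 7.17, 7.26 and 7.23 in Tet2+/- HSCs (log2 -1.52 ± 0.24 SE, adjusted p = 0.304), with the Tet2+/- libraries almost equal. Epb4.1l4b, a FERM domain protein, stood at 4.45, 5.97 and 4.25 RPKM in Double HSCs, against 10.8, 11.6 and 11.4 in Tet2+/- HSCs, Eid2, an inhibitor of differentiation, at 6.12, 3.38 and 5.95 RPKM in Double HSCs, against 14.1, 12.7 and 11.01 in Tet2+/- HSCs, and Pfdn2, a subunit of the prefoldin chaperone, at 1.61, 0.938 and 1.49 RPKM in Double HSCs, against 7.73, 4.01 and 4.73 in Tet2+/- HSCs. For NrasG12D/+ minus wild type the log2 difference was 0.12 for Rtca, -0.05 for Pfdn2 and -0.18 for Fam69b, all with overlap. Gaa (-0.16) and Epb4.1l4b (-0.60) were lower there without overlap, and Eid2 (-0.61) was lower with overlap. Exon bases are shared with other genes for 20.84% of Fam69b, 25.43% of Rtca and 27.62% of Pfdn2, and whether the counting used strand is not given. Xlr4d-ps, an X-linked pseudogene with near-identical relatives, had 0 reads in the 3 Double libraries, against 51, 22 and 30 in Tet2+/- libraries, at least 10.45-fold lower with a floor of 3 reads per library, and its count is uncertain for that reason (adjusted p = 0.304).

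**Figure D5:**
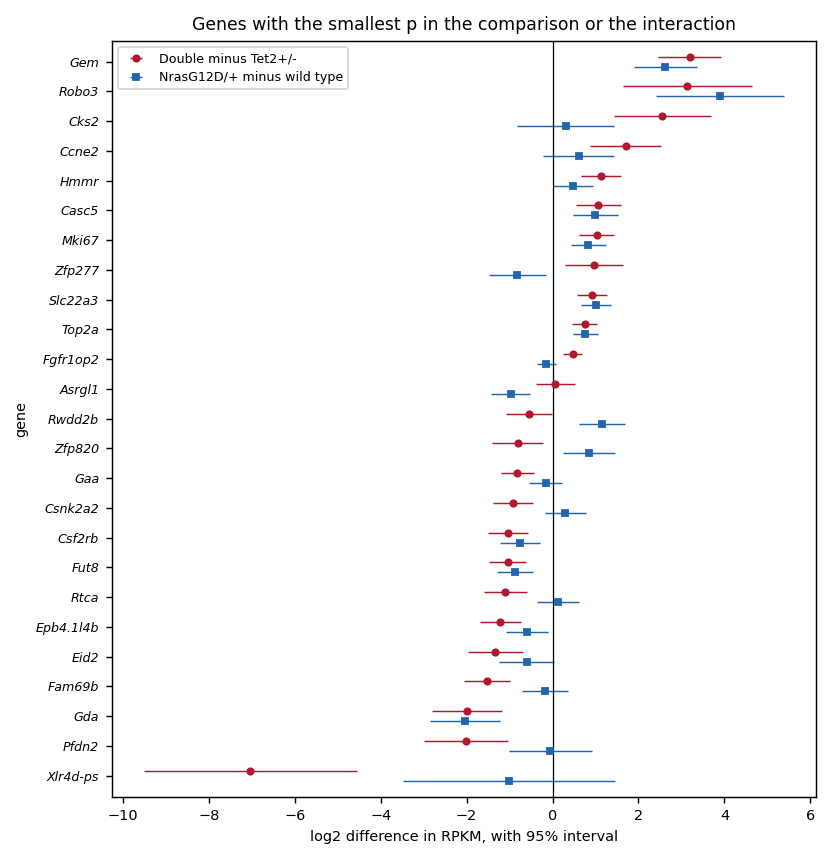
Log2 difference of RPKM with its 95% interval for the genes with the smallest p in either direction and for 6 genes named from the interaction, Double minus Tet2+/- as red circles and NrasG12D/+ minus wild type as blue squares. Gem, Robo3, Slc22a3, Top2a, Gda and Fut8 lie on the same side in both comparisons, while Rwdd2b, Zfp820, Zfp277 and Fgfr1op2 are among those on opposite sides. Xlr4d-ps has 0 reads in Double HSCs, so its point depends on the prior count.

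Across all genes the direction in Double against Tet2+/- went only weakly with that in NrasG12D/+ against wild type. Over the 14154 genes, which are not independent replicates, Pearson's r was 0.0623 and Spearman's rank correlation 0.1157, and the sign matched for 55.1%. Among the 382 genes that were higher with unadjusted p under 0.05 the sign matched for 285 (74.6%), and among the 387 that were lower for 249 (64.3%). The comparisons share no library. The interaction, which asks whether the allele acts differently with 1 Tet2 copy missing, passed for 1 gene, lower in direction (0.00707%), and unadjusted p was under 0.05 for 199 genes with positive values and 256 with negative ones. That gene, 1600002K03Rik, falls outside the rule for named genes and was chosen after its values were seen. It has no known function and was at 3.43, 3.45 and 3.86 RPKM in Double HSCs, against 5.44, 1.21 and 3.41 in Tet2+/- HSCs, with overlap, and its interaction rests on wild-type libraries at 0 reads. Genes with a negative interaction that passed numbered 0 without Double replicate 2, Tet2 replicates 1 or 3, or Nras replicates 1 or 2, 4 without Double replicate 1, and 6 without Double replicate 3 or wild-type replicate 2.

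Named from the smallest interaction p without passing, Rwdd2b stood at 6.17, 4.92 and 5.27 RPKM in Double HSCs, against 7.43, 7.79 and 8.57 in Tet2+/- HSCs, and at 5.89, 10.8 and 8.18 RPKM in NrasG12D/+ HSCs, against 3.02, 4.47 and 3.52 in wild type, so that the direction turned. Zfp820, a zinc finger protein, did likewise, at 3.42, 6.75 and 4.71 RPKM in Double HSCs, against 7.85, 8.26 and 9.14 in Tet2+/- HSCs, and at 7.74, 8.89 and 8.02 RPKM in NrasG12D/+ HSCs, against 3.27, 5.295 and 5.49 in wild type. Csnk2a2, a catalytic subunit of casein kinase 2, stood at 3.91, 5.79 and 6.72 RPKM in Double HSCs, against 9.36, 11.5 and 9.56 in Tet2+/- HSCs, and at 7.28, 9.53 and 9.53 RPKM in NrasG12D/+ HSCs, against 7.27, 7.24 and 6.73 in wild type. Zfp277 turned in the other sense, at 8.47, 6.096 and 5.55 RPKM in Double HSCs, against 4.51, 3.26 and 2.62 in Tet2+/- HSCs, and at 2.51, 3.25 and 4.41 RPKM in NrasG12D/+ HSCs, against 7.33, 4.995 and 5.38 in wild type. Asrgl1, an asparaginase-like enzyme, did not separate Double from Tet2+/- HSCs, at 10.9, 10.01 and 8.63 RPKM in Double HSCs, against 11.3, 8.68 and 8.35 in Tet2+/- HSCs, and was lower in NrasG12D/+ HSCs, at 6.81, 8.34 and 6.22 RPKM in NrasG12D/+ HSCs, against 18.05, 12.3 and 12.1 in wild type.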

How the data were processed

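Per the labels' protocols, ribosomal and mitochondrial RNA were removed from the total RNA of sorted HSCs, and libraries were made with a stranded kit. The submitters' processing notes name CASAVA 1.8.2, TopHat2 and edgeR and the build mm10, without roles. The authors deposited log2 RPKM for 18546 genes, an other unit than counts. The values came out as whole reads plus a prior of 0.25 for every gene, to within 0.001 reads. The gene lengths behind RPKM had a median of 1.55 times the longest GENCODE M21 transcript, so levels of different genes are not compared.

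A linear model with a mean for each genotype was fitted to the deposited values of all 12 libraries in limma (version 3.58.1, R 4.3.3), with a trend of the variance on the level; 8 degrees of freedom remained. Tests were two-sided, adjusted by Benjamini-Hochberg over all 14154 genes, with a threshold of 0.05. The method was tested on simulated data. Fold changes are on the log2 RPKM scale, and intervals are at the 95% level. Floors of 3 reads cover counting error only, since the reads are not independent molecules. P-values measure the spread between libraries, which the labels do not tie to cultures or litters.

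Members and gene lists (36 lists, 762 members, 686 in the table, 607 tested) were chosen with earlier results of these data known, so no list is independent support. Named genes were the targeted pair, 10 per direction by call and then smallest p without overlap, 3 per direction for the interaction, and members of each list with the smallest p. Clone names and sex-linked genes were left out of naming, and genes given as further values (such as Kit, Cd48, Hras, Ube2c, Ccnb2, Ect2 and Plk1) were added afterwards. Alternatives were other minima, pseudocount 0.5, scalings, samples, covariates, voom and each library left out. Coordinates came from GENCODE M21 (mm10), with 17264 symbols matched, and promoters from RefSeq. Some members of the lists are not reported here by name.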

Additional observations from a re-analysis of the deposited data

Results flagged for a closer look

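The interaction of 1600002K03Rik (mm10 chromosome 10, 80172944 to 80175146) stood out because the test of the difference itself passed. The log2 interaction was -8.47 (limma, adjusted p = 0.0215). Its reads were 49, 79 and 76 in Double HSCs and 125, 21 and 61 in Tet2+/- HSCs, and 117, 149 and 107 in NrasG12D/+ HSCs and 0 in each of the 3 wild-type libraries. The size depends on the prior count, since a whole group was at 0 reads. Without Double replicate 2, Tet2 replicates 1 or 3, or Nras replicates 1 or 2, 0 genes with a negative interaction passed, while 4 did without Double replicate 1 and 6 without Double replicate 3 or wild-type replicate 2. In all, 455 genes had unadjusted p under 0.05 for the interaction.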

How the results depend on the processing

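Gem was the 1 gene that rose in the comparison as reported, and 0 genes rose with the replicate block (Gem adjusted p = 0.179), with sex as a covariate, with voom or with female libraries only. Genes lower numbered 2 with only the 6 Double and Tet2 libraries and 1 with no variance trend. With only the 6 libraries Gem was not among the 3 genes called. Genes with a negative interaction numbered 2 with no minimum on RPKM or no variance trend, and 0 with log2(RPKM + 0.5), quantile normalization, the replicate block, sex as a covariate, voom or female libraries only. Leaving out each library in turn gave 0 to 2 genes higher, 0 to 5 lower, 0 to 2 with a positive and 0 to 6 with a negative interaction. The cause was not tested. A fit that lacked both wild-type replicate 1 and Nras replicate 2 gave 2 genes higher, 3 lower and 1 with a positive interaction. That fit and the one with female libraries only were chosen after seeing the data, and the female fit holds 1 Tet2 library, assumed to vary like the others.

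Of the genes named, 4 changed sign. Leaving out each library in turn, Nras ranged from -0.077 to 0.17, Tet2 from -0.020 to 0.16, Asrgl1 from -0.015 to 0.20 and 1600002K03Rik from -0.27 to 0.82, and with female libraries only Nras stood at -0.11. Over all tested genes the titles' replicate numbers gave no sign of pairing, since same-numbered Double and Tet2 libraries had correlations of deviations of 0.0146, -0.001 and 0.0622, although replicate 1 was male and replicate 2 female in every genotype and immediate early genes were highest in replicate 2. Over all alternatives and left-out libraries the list medians ranged from 0.61 to 0.82 for G2/M, 0.22 to 0.41 for S phase, 0.29 to 0.56 for histones, 0.16 to 0.38 for ERK output, -0.28 to -0.11 for HSC identity, -0.33 to -0.24 for STAT5, SOCS and PIM, and -0.84 to -0.41 for mitochondrially encoded genes. The squared difference between replicates, relative to the variance that counting error gives, averaged 46.2 to 89.1 over genes of both groups, a mean that genes with many reads weigh on most, and depth limits genes with few reads. Male and female libraries are unevenly spread over the groups.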

Other observations

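Interferon response genes had 19 of 29 tested members positive, with a median log2 difference of 0.13, and 5 (17.2%) lay above without overlap, against 6.57% of all genes. Ifih1, the RNA sensor MDA5, stood at 9.105, 11.1 and 11.2 RPKM in Double HSCs, against 8.15, 8.06 and 6.65 in Tet2+/- HSCs, and Xaf1, an apoptosis factor induced by interferon, at 5.18, 6.15 and 5.99 RPKM in Double HSCs, against 3.12, 3.58 and 2.597 in Tet2+/- HSCs. Oasl2, a 2'-5' oligoadenylate synthetase relative, stood at 8.33, 8.63 and 10.4 RPKM in Double HSCs, against 5.59, 7.404 and 7.12 in Tet2+/- HSCs, also without overlap, and the immunity GTPase Iigp1 overlapped at 12.99, 17.3 and 16.6 RPKM in Double HSCs, against 9.67, 13.9 and 9.895 in Tet2+/- HSCs. None passed.

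In the BCL2 family, Bcl2, which blocks mitochondrial cell death, stood at 21.1, 13.9 and 20.1 RPKM in Double HSCs, against 13.1, 11.02 and 12.3 in Tet2+/- HSCs, higher without overlap (log2 0.58 ± 0.18 SE). Bbc3, the death inducer PUMA, stood at 1.55, 0.866 and 2.12 RPKM in Double HSCs, against 4.69, 5.64 and 3.23 in Tet2+/- HSCs, lower without overlap (log2 -1.64 ± 0.40 SE, limma adjusted p = 0.597). Gtse1, a p53 inhibitor of G2 phase, stood at 7.94, 7.46 and 7.99 RPKM in Double HSCs, against 5.52, 3.16 and 1.93 in Tet2+/- HSCs. Chromatin regulators had no common direction, with 9 of 21 cytosine modification genes and 10 of 21 Polycomb genes positive. Of the DNA methyltransferases Dnmt3b stood at 2.84, 2.71 and 3.25 RPKM in Double HSCs, against 3.85, 4.39 and 3.72 in Tet2+/- HSCs, and Dnmt3a at 5.47, 6.19 and 6.76 RPKM in Double HSCs, against 7.29, 7.13 and 7.17 in Tet2+/- HSCs, both lower without overlap. So was Tet1, an oxidase of methylcytosine, at 6.18, 6.098 and 5.14 RPKM in Double HSCs, against 6.94, 7.45 and 6.92 in Tet2+/- HSCs. These 3 were 14.3% of the tested cytosine modification genes, against 6.52% of all genes below without overlap. In that list 0 members had unadjusted limma p under 0.05. Cbx2, a Polycomb subunit that reads methylated histone H3, stood at 3.86, 1.48 and 4.07 RPKM in Double HSCs, against 6.06, 5.46 and 6.12 in Tet2+/- HSCs, and Ezh1, a histone methyltransferase, at 6.79, 7.12 and 7.403 RPKM in Double HSCs, against 8.02, 9.81 and 8.82 in Tet2+/- HSCs. Of the Polycomb list 2 (9.52%) lay below without overlap and 1 (4.76%) above, against 6.52% and 6.57% of all genes. Gpi1, glucose phosphate isomerase, was the glycolysis gene with the smallest p, at 25.5, 24.2 and 24.7 RPKM in Double HSCs, against 30, 28.2 and 30.4 in Tet2+/- HSCs. Trib3, a stress response pseudokinase, ranged from 0.0586 to 4.30 RPKM in Double HSCs and from 3.76 to 6.73 in Tet2+/- HSCs. None of these genes passed.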
